A study of Homo sapiens with 6 samples.

Results

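The genes described here are 10 components of Nodal signalling, LEFTY1, LEFTY2, GDF3, TDGF1, ACVR1B, ACVR2B, SMAD2, SMAD3, SMAD7 and SKIL, out of 16199 genes measured. They were taken by symbol, by their role as antagonists, ligand, co-receptor, receptors, SMADs and SMAD inhibitors. LEFTY2 and SKIL were picked because their levels moved in opposite directions in edited cells of this same study, so their differences from wild type are given as a description with no test. RNA was sequenced from H1 cells, an established line of human embryonic stem cells, with 2 libraries for each of 3 genotypes: cells edited with CRISPR-Cas9 to carry the cancer hotspot change S1344L in DICER1 on both alleles (homozygous), cells edited to be hemizygous for it, and wild-type H1 cells. DICER1 is the enzyme that cuts mature microRNAs out of their hairpin precursors, and the study asked what the hotspot change does to microRNA function. The labels state neither how many clones stand behind each edited genotype, nor what the other allele of hemizygous cells carries, nor whether replicates 1 and 2 were separate cultures. The p-values below therefore measure only the spread between these libraries, which may be technical.

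Nodal is a ligand of the TGF-beta family that pairs a type I receptor such as ACVR1B with a type II receptor such as ACVR2B, with TDGF1 (Cripto) as co-receptor. The activated receptors phosphorylate SMAD2 and SMAD3, which enter the nucleus with SMAD4 and, together with FOXH1, switch on target genes. Several targets are inhibitors of the pathway itself: the secreted antagonists LEFTY1 and LEFTY2, the receptor-blocking SMAD7, and SKIL (SnoN), which represses SMAD target genes. In human embryonic stem cells this pathway helps to maintain pluripotency at moderate activity and drives endoderm formation at high activity.

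LEFTY1 and LEFTY2 are also known targets of the miR-302 and miR-372 families, which are abundant in human embryonic stem cells and whose mature strands are DICER1 products. MicroRNAs were not measured in these libraries. The mature strands share 1 seed (bases 2 to 8, in capitals; RefSeq), and 12 mature microRNAs of the RefSeq table carry it.
hsa-miR-302a-3p: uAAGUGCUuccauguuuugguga
hsa-miR-302b-3p: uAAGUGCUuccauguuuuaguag
hsa-miR-302c-3p: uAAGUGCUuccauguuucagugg
hsa-miR-302d-3p: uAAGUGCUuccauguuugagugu
hsa-miR-372-3p: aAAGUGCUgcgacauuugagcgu
hsa-miR-373-3p: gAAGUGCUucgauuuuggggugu
The complement of this seed followed by A, AGCACTTA, occurred once in the 3′ UTR of LEFTY1 and once in that of LEFTY2 (longest 3′ UTR among the principal coding transcripts, GENCODE release 29, GRCh38). The stretches around them lie on the minus strand at chr1:225886464-225886493 for LEFTY1, the match starting at base 248 of a 3′ UTR of 445 bases, and at chr1:225937255-225937284 for LEFTY2, the match starting at base 171 of 837. They are shown because the match, in capitals, is the feature that the 2 antagonists share with each other and with no other member.
LEFTY1 site: tgcactatattctaAGCACTTAcatgtgga
LEFTY2 site: catcacccatcctaAGCACTTAcgtgagta
Across 12813 genes with a 3′ UTR of at least 30 bases, 3.62% held AGCACTTA, and 0.603% of the 5806 genes with a 3′ UTR of at most 1000 bases did. The shorter match AGCACTT, present in 22.4% of all these genes, occurred 5 times in the very long annotated 3′ UTR of SMAD2, once in that of SMAD3 and once in that of ACVR2B. It was not found in those of GDF3, TDGF1, ACVR1B, SMAD7 or SKIL. A match is a description of the letters and not a measured site.

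LEFTY1 (chr1:225886282-225911382, minus strand) and LEFTY2 (chr1:225936598-225941489, minus strand) are neighbouring copies whose coding sequences are identical at 1070 of 1101 aligned bases (97.2%). Of the 50-base windows of their transcripts, 493 of 1577 from LEFTY1 were found unchanged in LEFTY2, and 493 of 2238 from LEFTY2 in LEFTY1. How the authors' counting treated reads that fit both genes is not given in the sources used here, so the split of reads between the 2 genes is uncertain, and LEFTY1 is not independent of the choice of LEFTY2. TDGF1 (chr3:46574534-46582463, plus strand) shares 40.7% of its windows with the pseudogene TDGF1P3, which was at 20.4 to 26.7 CPM. Its exons also overlap those of LRRC2 on the other strand, which unstranded libraries cannot separate. On the same strand, exons of TDGF1, LEFTY1 and LEFTY2 overlap those of AC104304.1, AL117348.2 and AL117348.1, none of which is among the genes measured.

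Expression is given in CPM, each count divided by its TMM-scaled library size, over totals of 38164848 to 52924532 listed counts per library. The labelled cell type was checked against marker genes: all 10 pluripotency markers were measured, and they summed to 8237 and 7678 CPM in homozygous, 8654 and 8008 CPM in hemizygous and 7488 and 7339 CPM in wild-type libraries 1 and 2. The core factors POU5F1, SOX2 and NANOG were at 84.4 to 129, 341 to 419 and 143 to 198 CPM. The primitive streak factors TBXT, EOMES and GSC and the endoderm factors SOX17, FOXA2, GATA4 and GATA6 were not analysed here, the table keeping only genes above 0.5 CPM in at least 3 libraries. DICER1 was at 129 and 118 CPM in homozygous, 118 and 96.4 CPM in hemizygous and 169 and 126 CPM in wild-type libraries 1 and 2, a level that cannot check the edit itself. Libraries with the same replicate number deviated together from their genotype means across all genes, so each member is described by genotype and by number.

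The secreted antagonists LEFTY1 and LEFTY2 were lower on average in edited than in wild-type cells, LEFTY2 having been picked for this. LEFTY1 was at 2.31 and 0.862 CPM in homozygous libraries 1 and 2, 5.40 and 0.588 CPM in hemizygous libraries 1 and 2, and 11.9 and 9.01 CPM in wild-type libraries 1 and 2. All 4 edited libraries lay below both wild-type libraries, and the lowest 2 rested on 35 counts (homozygous 2) and 31 counts (hemizygous 2). LEFTY2 was at 5.62 and 2.02 CPM in homozygous, 6.88 and 2.24 CPM in hemizygous and 14.6 and 5.63 CPM in wild-type libraries 1 and 2. Both homozygous libraries lay below both wild-type libraries, whereas hemizygous 1 was above wild type 2. LEFTY2 averaged 3.82 ± 2.55 CPM in homozygous and 4.56 ± 3.28 CPM in hemizygous cells, against 10.1 ± 6.31 CPM in wild-type cells (SD, n = 2 each). Set against the wild-type library of the same number, LEFTY2 stood at 0.386 and 0.359 times wild type in homozygous 1 and 2, and at 0.473 and 0.398 times in hemizygous 1 and 2. The same ratios for LEFTY1 were 0.194 and 0.0957 in homozygous and 0.453 and 0.0653 in hemizygous cells. Fewer expressing cells and less RNA per cell cannot be told apart in such bulk libraries.

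**Figure D1:**
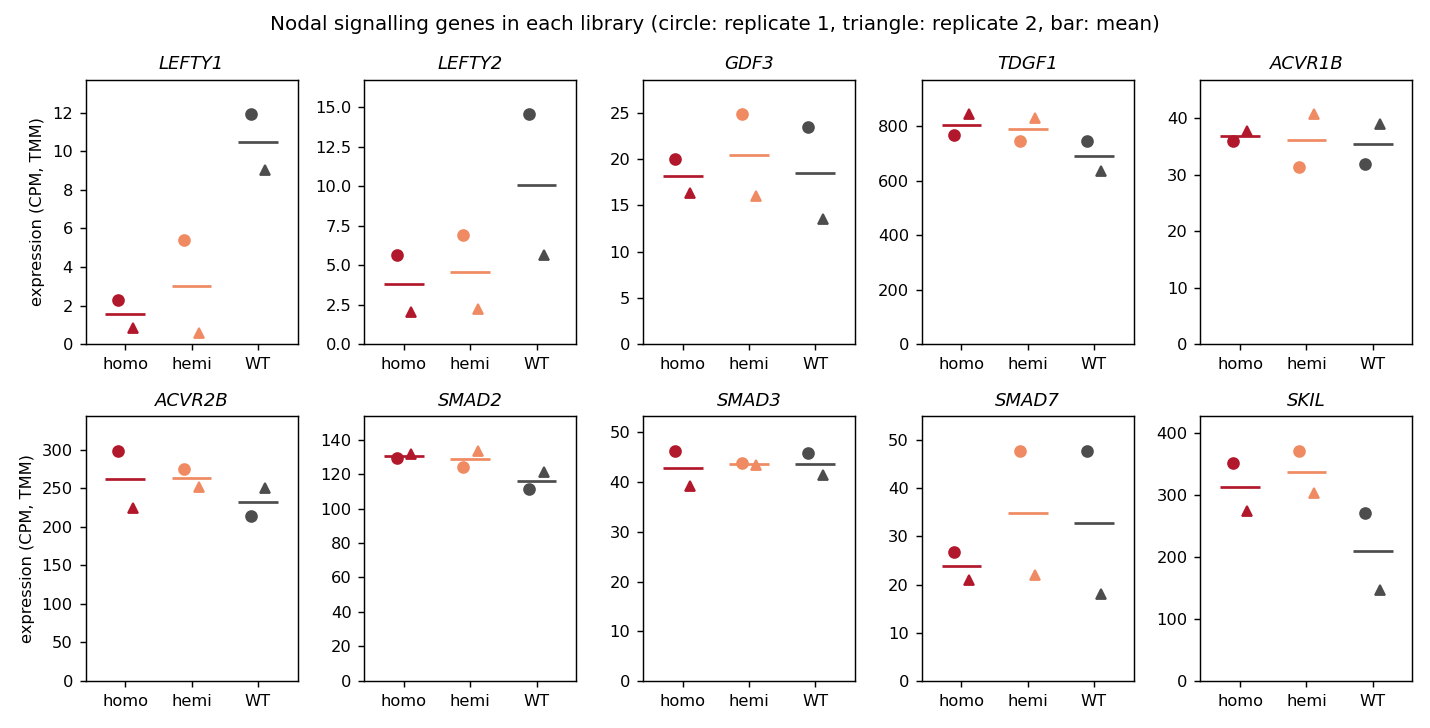
Expression (CPM after TMM scaling, linear axes from 0) of the 10 genes in homozygous, hemizygous and wild-type libraries, with replicate 1 as circles, replicate 2 as triangles and the mean of both as a bar. LEFTY1 and LEFTY2 have their highest points in wild type and SKIL its lowest. LEFTY1, LEFTY2, GDF3, SMAD3, SMAD7 and SKIL are higher in replicate 1 than in replicate 2 of every genotype. This holds for 6 of the 10 genes and for 4836 of all 16199.

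GDF3 (chr12:7689782-7695776, minus strand), a TGF-beta family ligand expressed by pluripotent cells, did not separate the genotypes. It was at 20.0 and 16.4 CPM in homozygous, 24.8 and 16.02 CPM in hemizygous and 23.5 and 13.5 CPM in wild-type libraries 1 and 2. Every replicate 1 library was above every replicate 2 library, and the genotypes overlapped. NODAL, the ligand itself and no member of the 10, had the same order, at 39.7 and 24.4 CPM in homozygous, 42.8 and 22.7 CPM in hemizygous and 53.8 and 14.4 CPM in wild-type libraries 1 and 2.

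The receiving end of the pathway varied little. The co-receptor TDGF1 was at 766 and 843.5 CPM in homozygous, 746.8 and 828.4 CPM in hemizygous and 744.6 and 636 CPM in wild-type libraries 1 and 2. All 4 edited libraries lay above both wild-type ones, hemizygous 1 only just. ACVR1B (chr12:51951667-51997078, plus strand), a type I receptor, was at 36.0 and 37.8 CPM in homozygous, 31.5 and 40.7 CPM in hemizygous and 32.0 and 39.1 CPM in wild-type libraries 1 and 2, with overlap in every comparison. ACVR2B (chr3:38453851-38493142, plus strand), a type II receptor, was at 298.2 and 224.2 CPM in homozygous, 274.8 and 251.6 CPM in hemizygous and 213.7 and 249.8 CPM in wild-type libraries 1 and 2. The lower hemizygous library stood just above the higher wild-type one, and the homozygous libraries spanned both.

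The receptor-activated SMADs were the steadiest members. SMAD2 (chr18:47808957-47931146, minus strand) was at 129 and 132 CPM in homozygous, 124 and 133 CPM in hemizygous and 111 and 121 CPM in wild-type libraries 1 and 2, higher in all 4 edited libraries than in both wild-type ones. SMAD3 (chr15:67063763-67195195, plus strand) was at 46.3 and 39.3 CPM in homozygous, 43.8 and 43.4 CPM in hemizygous and 45.8 and 41.4 CPM in wild-type libraries 1 and 2, with overlap throughout. The SD of log2 CPM over the 6 libraries was 0.0971 for SMAD2 and 0.0892 for SMAD3, below the median gene's 0.202. It was 1.78 for LEFTY1, 1.06 for LEFTY2, 0.613 for SMAD7, 0.481 for SKIL and 0.343 for GDF3, and in LEFTY2 and SKIL it includes the genotype difference they were picked for. TDGF1, ACVR1B and ACVR2B stood between 0.145 and 0.179.

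The inhibitors inside the cell differed from each other. SMAD7 (chr18:48919853-48952052, minus strand), which blocks the receptors, was at 26.7 and 20.9 CPM in homozygous, 47.7 and 22.01 CPM in hemizygous and 47.7 and 18.1 CPM in wild-type libraries 1 and 2. Homozygous 1 lay well below the other replicate 1 libraries, while the replicate 2 libraries were alike, and all genotypes overlapped. SKIL (chr3:170357678-170396835, plus strand), the nuclear repressor, was at 353 and 274.6 CPM in homozygous, 371.8 and 303.7 CPM in hemizygous and 272 and 146.8 CPM in wild-type libraries 1 and 2. All 4 edited libraries lay above both wild-type libraries, although homozygous 2 exceeded wild type 1 by little. SKIL averaged 314 ± 55.5 CPM in homozygous and 338 ± 48.1 CPM in hemizygous cells, against 209 ± 88.5 CPM in wild-type cells (SD, n = 2 each). Against the wild-type library of the same number it was 1.30 and 1.87 times as high in homozygous 1 and 2, and 1.37 and 2.07 times in hemizygous 1 and 2.

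In homozygous against wild-type cells, edgeR's quasi-likelihood test called 0 of the 8 members not picked, and 0 of 16199 genes (0%), with 435 genes at an unadjusted p under 0.05. DESeq2 called 10 genes and limma-voom 0, and neither called any of the 8. Unless a replicate block is named, the genotype fits here and below have no term for the replicate number. The shift that same-numbered libraries share is therefore counted as spread, and a lack of calls does not show that genotypes were alike. The log2 fold change of LEFTY1 was -2.71 ± 0.94 (SE, edgeR adjusted p = 1). The descriptive log2 fold changes were -1.40 for LEFTY2 and 0.58 for SKIL. SMAD7 stood at -0.47 ± 0.51, and the other 6 lay between -0.03 for SMAD3 and 0.22 for TDGF1. Of the 8 members not picked, TDGF1 and SMAD2 were higher with no overlap between libraries (2 of 8, against 14.2% of all genes), and LEFTY1, which shares reads with the picked LEFTY2, was lower (1 of 8, against 13.6%). With the replicate number as a block, edgeR called 0 genes and DESeq2 126, none of the 8 members among them, and the adjusted p of LEFTY1 was 0.316 in edgeR and 0.0779 in DESeq2.

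In hemizygous against wild-type cells edgeR again called 0 of the 8 members and 0 genes (0%), with 141 at an unadjusted p under 0.05, while DESeq2 called 7 genes, none of the 8 members among them, and limma-voom 0. LEFTY1 stood at -1.82 ± 0.90 on the log2 scale (SE, edgeR adjusted p = 1), and the descriptive values were -1.16 for LEFTY2 and 0.69 for SKIL. SMAD7 stood at 0.08 ± 0.51, and the other 6 lay between 0.00 for SMAD3 and 0.19 for TDGF1. Of the 8 members not picked, TDGF1, SMAD2 and ACVR2B were higher without overlap (3 of 8, against 8.13% of all genes) and LEFTY1 was lower (1 of 8, against 9.21%). With the replicate block edgeR called 1 gene and DESeq2 23, none of the 8 members among them. Both comparisons use the same wild-type libraries, so they are not independent of each other.

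**Figure D2:**
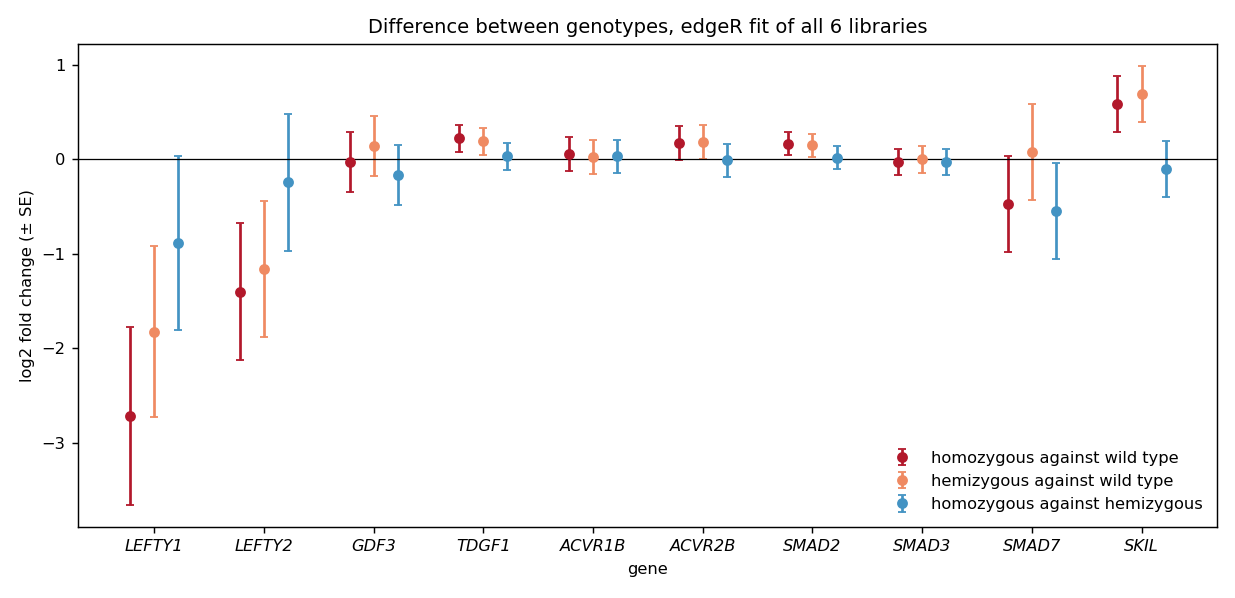
Log2 fold change of the 10 genes with SE bars (edgeR fit of all 6 libraries) for homozygous against wild type, hemizygous against wild type and homozygous against hemizygous. LEFTY1 and LEFTY2 lie below 0 and SKIL above 0 in both comparisons with wild type, and the other 7 genes lie between -0.47 and 0.22 there.

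No member passed the test between homozygous and hemizygous cells. LEFTY2 and SKIL, which were not picked on this comparison, had log2 fold changes of -0.24 ± 0.72 and -0.11 ± 0.30 (SE), and LEFTY1 and SMAD7 of -0.89 ± 0.92 and -0.55 ± 0.51, each with an edgeR adjusted p of 0.999. The test called 0 of 10 members and 0 genes (0%), with 124 genes at an unadjusted p under 0.05. DESeq2 called 10 genes, none a member, and limma-voom 0. With the replicate block edgeR called 1 gene and DESeq2 24, again with no member among them. The libraries of the 2 edited genotypes overlapped in all 10 members, whereas 11% of all genes were higher and 10.4% lower without overlap.

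A single library decided much of these sizes. Without wild type 1 the LEFTY2 difference shrank to -0.55 in homozygous and -0.31 in hemizygous cells, and without wild type 2 it was -1.92 and -1.67. Without replicate 1 of the edited genotype LEFTY2 stood at -2.32 in homozygous and -2.17 in hemizygous cells, and without replicate 2 at -0.85 and -0.56. SKIL stood at 1.10 in homozygous and 1.21 in hemizygous cells without wild type 1, and at 0.22 and 0.32 without wild type 2. LEFTY1 ranged from -3.60 to -2.18 in homozygous and from -4.14 (without hemizygous 1) to -0.96 (without hemizygous 2) in hemizygous cells. With the counts of LEFTY1 and LEFTY2 added together the log2 fold change was -1.92 in homozygous and -1.46 in hemizygous cells.

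**Figure D3:**
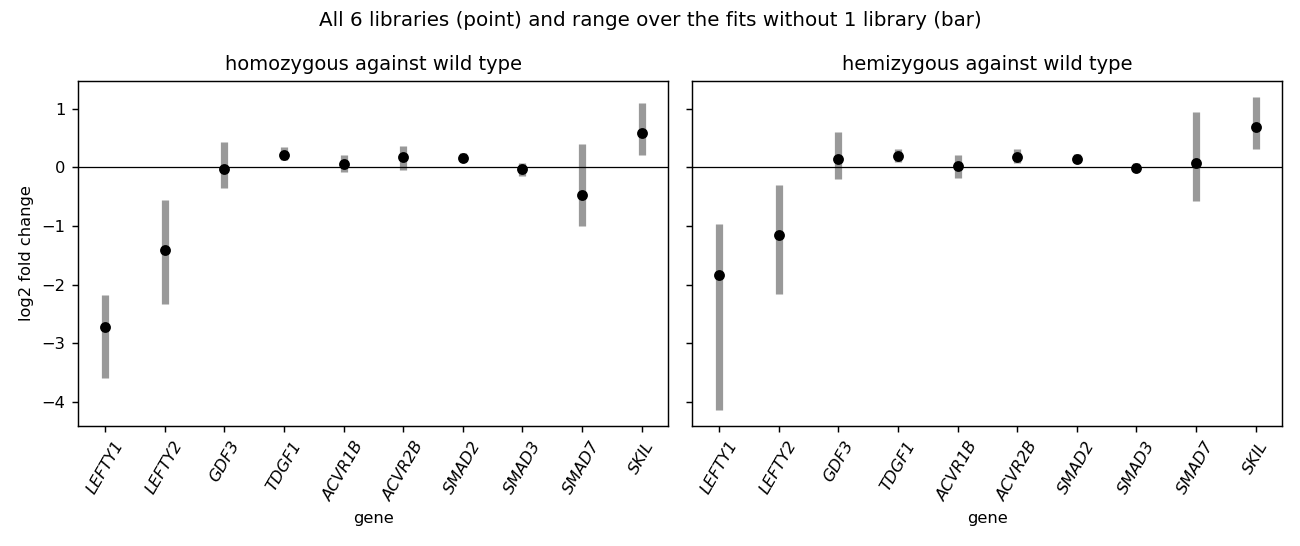
Log2 fold change of the 10 genes against wild type in the fit of all 6 libraries (point) and the range over the 6 fits that each leave out 1 library (bar), for homozygous and for hemizygous cells. The bar of LEFTY2 runs from -2.32 to -0.55 in homozygous and from -2.17 to -0.31 in hemizygous cells, LEFTY2 and SKIL having been picked for their direction, and the bars of GDF3, ACVR1B, SMAD3 and SMAD7 reach both sides of 0 in both panels.

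The wider pathway was read from lists of 83 genes, of which 67 were measured. Against wild type edgeR called 0 of the 65 left without the picked LEFTY2 and SKIL, and between the edited genotypes 0 of 67. In homozygous against wild-type cells the median log2 fold change of the measured genes was -0.05, against -0.00 for all genes, and 28 of 67 lay above 0. The 4 proprotein convertases, which cut Nodal and related precursors, had a median of -0.41. PCSK5 was at 28.97 and 25.2 CPM in homozygous, 46.15 and 30.5 CPM in hemizygous and 52.8 and 31.8 CPM in wild-type libraries 1 and 2. In homozygous against wild-type cells PCSK6 had a log2 fold change of -0.51 ± 0.24 and FURIN of -0.31 ± 0.15 (SE, edgeR adjusted p = 1 each). These 3 are named because they were lower without overlap between libraries, as were 13.6% of all genes, while PCSK7, at 49.9 and 48.57 CPM in homozygous and 52.85 and 45.1 CPM in wild-type libraries 1 and 2, overlapped. Fibroblast and mesenchyme markers, 4 of 8 measured with COL3A1, TWIST1, DCN and LUM not analysed here, had a median of -0.37 with 0 of 4 above 0 and 0 called. They summed to 770.7 and 838.5 CPM in homozygous, 1040 and 869.5 CPM in hemizygous and 1100 and 940.3 CPM in wild-type libraries 1 and 2. The neural ectoderm markers, 3 of 6 measured with PAX6, SOX1 and LHX2 not analysed here, summed to 424.1 and 410.3 CPM in homozygous, 569.5 and 471.6 CPM in hemizygous and 502.5 and 457.6 CPM in wild-type libraries. NES made up most of these sums. In homozygous against wild-type cells NES and OTX2 were lower without overlap (2 of 3, against 13.6% of all genes). ZIC1 was higher (1 of 3, against 14.2%), and 0 of the 3 were called. ZIC1 was at 28.2 and 28.0 CPM in homozygous, 41.0 and 58.9 CPM in hemizygous and 17.9 and 16.3 CPM in wild-type libraries 1 and 2. Among the 4 fibroblast markers THY1 was the highest in every library, so their sums rest on it more than on any other marker. Whether these markers came from fibroblasts was not tested. The part of fibroblast, mesenchyme and neural cells in the lower convertase and target medians was not tested. Among ligands, INHBA, the activin A subunit, was at 0.947 and 1.65 CPM in homozygous and 8.002 and 1.842 CPM in wild-type libraries 1 and 2, and INHBE, another activin subunit, at 3.50 and 3.52 against 8.77 and 5.27 CPM. In hemizygous against wild-type cells the median of the 67 was 0.03 and that of the convertases -0.12, and in homozygous against hemizygous cells they were -0.12 and -0.27.

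Of the pathway's known induced genes 10 of 16 listed were measured. Their median log2 fold change against wild type was -0.28 in homozygous and 0.01 in hemizygous cells. These medians include LEFTY2 and SKIL, picked on these comparisons, and LEFTY1, which shares reads with LEFTY2. Of the 8 not picked, edgeR called 0 in each comparison. CCN2, a matricellular growth factor gene, was at 25.8 and 23.3 CPM in homozygous, 55.5 and 21.1 CPM in hemizygous and 64.3 and 22.03 CPM in wild-type libraries 1 and 2. Only hemizygous 1 and wild type 1 were high. TGFBR2, the type II receptor for TGF-beta, whose 3′ UTR holds AGCACTTA once, was at 18.3 and 16.2 CPM in homozygous, 27.4 and 14.7 CPM in hemizygous and 31.3 and 20.8 CPM in wild-type libraries 1 and 2 (log2 fold change against wild type -0.60 ± 0.33 in homozygous and -0.31 ± 0.32 in hemizygous cells, SE, edgeR adjusted p = 1 each). SMAD4, the shared partner SMAD, lay between 115 and 126 CPM in all libraries, and FOXH1, the DNA-binding partner, between 88.6 and 127 CPM. Of the BMP arm, a related branch with its own SMADs, 16 of 20 listed genes were measured, with medians of 0.05 in homozygous and 0.04 in hemizygous cells. Beyond the 10 members, 4 of 57 measured pathway genes were higher without overlap in homozygous than in wild-type cells, against 14.2% of all genes. They were ACVR1C, SMAD9, BMP4 and SMAD6 (log2 fold changes 0.36, 0.43, 0.35 and 0.34), and 12 of 57 were lower, against 13.6%. In hemizygous against wild-type cells 5 of 57 were higher, against 8.13%, and 1 lower, against 9.21%.

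Several members differed between libraries of replicate number 1 and 2. In a fit with genotype and number, edgeR called 4 of 10 members higher in replicate 1 than in replicate 2, against 12% of all genes, and 0 lower, against 8.5%. Of the 8 members not picked, 2 were called higher and 0 lower. LEFTY2 averaged 9.02 CPM in replicate 1 and 3.30 CPM in replicate 2 libraries, with a log2 difference of 1.48 ± 0.14 (SE, edgeR adjusted p = 0.012). Within homozygous, hemizygous and wild-type cells it was 2.78, 3.07 and 2.59 times as high in replicate 1, the most even ratio of the 4. SMAD7 averaged 40.7 against 20.3 CPM (0.96 ± 0.18, edgeR adjusted p = 0.0181), GDF3 22.8 against 15.3 CPM (0.57 ± 0.12, edgeR adjusted p = 0.0205) and SKIL 332 against 242 CPM (0.51 ± 0.12, edgeR adjusted p = 0.0294). LEFTY2 and SKIL, picked for opposite directions with genotype, were both higher in replicate 1.

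LEFTY1 was also higher in replicate 1 of each genotype, by 2.68, 9.17 and 1.32 times in homozygous, hemizygous and wild-type cells, but missed the threshold (1.504 ± 0.463 on the log2 scale, edgeR adjusted p = 0.0583). ACVR1B was lower in replicate 1 in each genotype and missed it too (-0.24 ± 0.09, edgeR adjusted p = 0.0885). TDGF1, ACVR2B, SMAD2 and SMAD3 had log2 differences between -0.09 and 0.13 that did not pass. What the number marks is not stated in the labels.

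**Figure D4:**
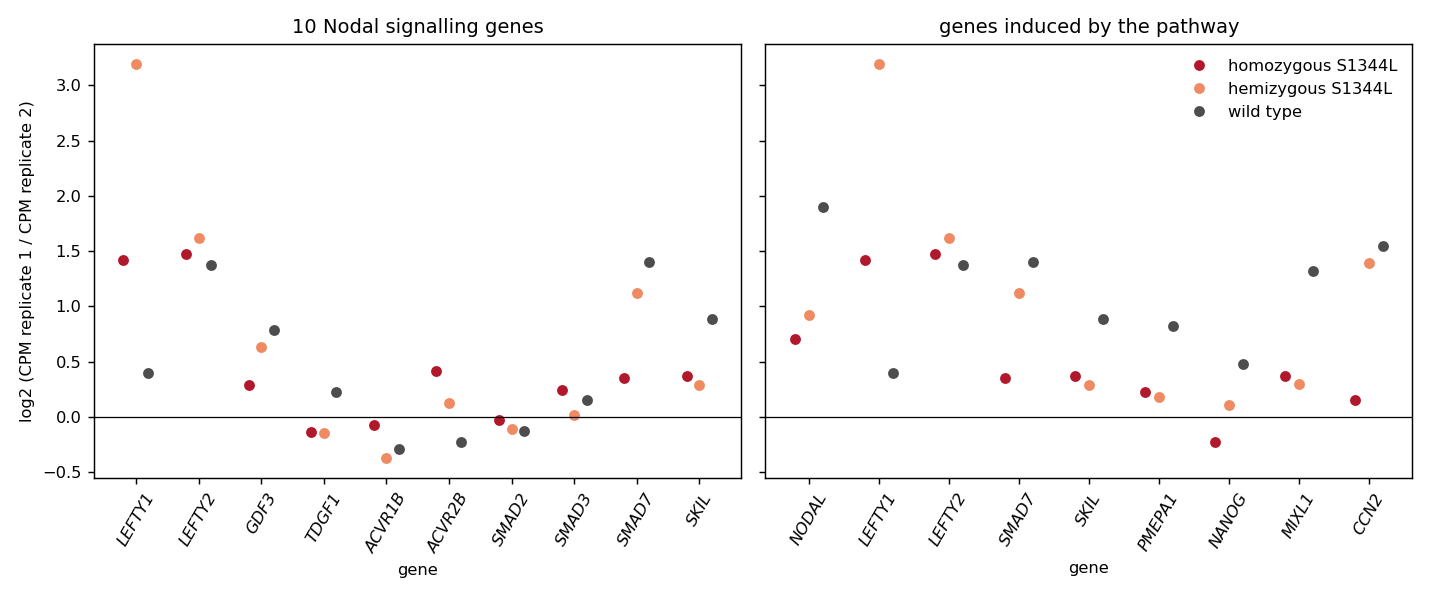
Log2 ratio of CPM in replicate 1 over replicate 2 within homozygous, hemizygous and wild-type cells, for the 10 genes (left) and for 9 genes known to be induced by the pathway (right, including 4 of the 10). LEFTY2 lies at a similar height in all 3 genotypes (ratios of 2.78, 3.07 and 2.59), while SMAD7 and CCN2 lie far lower in homozygous cells (ratios of 1.28 and 1.11) than in hemizygous and wild-type cells.

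Genes known to be induced by the pathway were among those higher in replicate 1. Of the 10 measured, edgeR called 6 higher, against 12% of all genes, and 0 lower, against 8.5%, with a median log2 difference of 1.00 against -0.00 for all genes; the list includes LEFTY1, LEFTY2, SMAD7 and SKIL. Without the hemizygous libraries the count was 0, without the wild-type libraries 0, and without the homozygous libraries 10, a check chosen after seeing the data. Of up to 16199 genes the same fits called 2, 0 and 6252, so the target count moved with the count of all genes. NODAL, which induces its own gene, averaged 45.4 CPM in replicate 1 and 20.5 CPM in replicate 2 libraries (1.16 ± 0.21, edgeR adjusted p = 0.0166). CCN2 averaged 48.6 against 22.1 CPM (1.04 ± 0.25, edgeR adjusted p = 0.0297). PMEPA1, MIXL1 and NANOG did not pass. The 10 members aside, 17 of 57 measured pathway genes were called higher in replicate 1, against 12% of all genes, and 3 lower, against 8.5%. Among them the ubiquitin ligases SMURF1 and SMURF2, which mark receptors and SMADs for degradation, were higher by 0.40 and 0.44 on the log2 scale, the receptors TGFBR1 and TGFBR2 by 0.29 and 0.56, and the corepressor TGIF1 was lower at -0.28.

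The difference between replicate numbers was smallest in homozygous cells for some genes and not for others. SMAD7 was 1.28 times as high in homozygous 1 as in homozygous 2, against 2.17 and 2.64 times in hemizygous and wild-type cells, and CCN2 1.11 times, against 2.63 and 2.92 times. For SKIL, PMEPA1 and MIXL1 the smallest ratio was in hemizygous cells (1.22, 1.13 and 1.23). For LEFTY1 and LEFTY2 it was in wild-type cells (1.32 and 2.59). With 1 library for each genotype and number, the difference between genotypes in this ratio could not be tested. Without the hemizygous libraries edgeR called 0 members and 2 genes between the numbers, and without the wild-type libraries 0 members and 0 genes. Without the homozygous libraries it called 6 members, LEFTY1 and ACVR1B being added, and 6252 genes. The log2 difference of LEFTY2 stayed between 1.41 and 1.54 in these fits. The endoderm-associated genes CXCR4 and HHEX, the 2 of 6 endoderm markers measured, were also called higher in replicate 1, their summed level being 3.31 and 2.39 CPM in homozygous, 3.70 and 1.99 CPM in hemizygous and 4.22 and 1.84 CPM in wild-type libraries 1 and 2. Of the fibroblast markers 1 of 4 was called higher, of the pluripotency markers 1 of 10, and of the streak, neural and trophoblast markers 0. Of all genes 12% were called higher in the same fit of all 6 libraries. Called lower were 0 of these markers, against 8.5% of all genes. The fibroblast markers did not move together: THY1 stood at -0.19 on the log2 scale, and COL1A1, COL1A2 and VIM at 0.44, 0.26 and 0.29. The part of these cell types in the result was not tested.

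Because SMAD7, SKIL and GDF3 were higher together in replicate 1, the RefSeq windows from 250 bases before to 50 bases after their start sites (GRCh38.p14) are shown, with each SMAD-binding box CAGAC, or GTCTG on the other strand, in capitals. The windows are chr18:48950916-48951215 (minus strand) for SMAD7, chr3:170357465-170357764 (plus strand) for SKIL and chr12:7695726-7696025 (minus strand) for GDF3.
SMAD7 window: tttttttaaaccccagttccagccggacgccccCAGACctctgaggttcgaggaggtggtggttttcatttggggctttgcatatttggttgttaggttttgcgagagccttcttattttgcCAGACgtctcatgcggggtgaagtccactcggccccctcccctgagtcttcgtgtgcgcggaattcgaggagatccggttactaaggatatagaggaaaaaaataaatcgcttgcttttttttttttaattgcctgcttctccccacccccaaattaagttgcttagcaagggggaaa
SKIL window: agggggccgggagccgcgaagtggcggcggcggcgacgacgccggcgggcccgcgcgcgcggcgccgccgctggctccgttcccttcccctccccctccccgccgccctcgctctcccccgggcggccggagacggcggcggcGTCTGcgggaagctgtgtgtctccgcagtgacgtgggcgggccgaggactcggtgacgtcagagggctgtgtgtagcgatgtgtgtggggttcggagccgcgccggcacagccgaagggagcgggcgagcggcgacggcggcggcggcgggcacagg
GDF3 window: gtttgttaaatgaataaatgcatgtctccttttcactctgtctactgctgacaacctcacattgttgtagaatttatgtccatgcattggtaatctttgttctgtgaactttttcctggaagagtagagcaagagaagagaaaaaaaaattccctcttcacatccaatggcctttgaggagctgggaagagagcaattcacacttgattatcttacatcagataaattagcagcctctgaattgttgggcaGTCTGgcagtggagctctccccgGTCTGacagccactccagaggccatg
SMAD7 and GDF3 held 2 boxes each and SKIL 1, where 45.3% of 35116 such windows held at least 1. The share of windows with 2 boxes was not counted. The boxes of SMAD7 and SKIL lay before the start site, whereas those of GDF3 began at bases 2 and 25 counted from it. The window of SMAD3 held 1, and those of SMAD2, ACVR1B and ACVR2B held 0. The FOXH1 motif AATCCACA, searched on both strands, was in none of the 7 windows available and in 0.817% of all. RefSeq lists several such windows for SMAD7 (3), SMAD3 (5), SMAD2 (2) and ACVR1B (2), and the one nearest to the start of the principal GENCODE transcript with the longest 3′ UTR was used. The boxes of their other windows, and windows for LEFTY1, LEFTY2 and TDGF1, were not used here.

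The genes most like LEFTY2 over the 6 libraries, by Pearson correlation of log2 CPM among 14236 genes with a symbol and a mean of at least 1 CPM, were TBC1D19 (r = 0.992), PXN (r = 0.988) and IRAK1 (r = 0.987). PXN, which encodes the focal adhesion protein paxillin, was at 175 and 147 CPM in homozygous, 183 and 149.9 CPM in hemizygous and 213 and 186 CPM in wild-type libraries 1 and 2, highest in wild type 1 and lowest in homozygous 2 as LEFTY2 was, but over a smaller range. Those most like SKIL were CCDC18 (r = 0.998), D21S2088E (r = 0.991) and BLMH (r = 0.983), with BLMH, a cysteine protease gene, at 114 and 110.1 CPM in homozygous, 115 and 113 CPM in hemizygous and 112.5 and 101 CPM in wild-type libraries 1 and 2. As many as 85 genes passed r = 0.95 with LEFTY2 and 40 with SKIL. These values describe 6 libraries that share genotype and number in pairs.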

How the data were processed

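Total RNA from 6 libraries of H1 cells was prepared with an Illumina TruSeq kit, per the labels' protocols, and the authors used cutadapt and HISAT2 with hg38, per the submitters' processing notes. How reads were counted, with which annotation and strand setting, is not given in the sources used here. Raw counts per gene were deposited by the authors, with every gene above 0.5 CPM in at least 3 libraries. Groups and replicate numbers came from the titles.

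All 16199 genes were fitted with edgeR 4.0.16 in R 4.3.3 (TMM, filterByExpr, which removed 0 genes, quasi-likelihood test, Benjamini-Hochberg threshold 0.05), first by genotype and then by genotype and replicate number. SE is the log2 fold change over the root of F. The code was tested on simulated data. DESeq2 1.42.0 and limma-voom 3.58.1 were alternatives. After genotype means were removed, same-numbered libraries correlated across genes at 0.472 (homozygous, hemizygous), 0.354 (homozygous, wild type) and 0.736 (hemizygous, wild type), so a paired fit with a replicate block was also run. Libraries of a genotype differed far beyond counting noise.

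The members, gene lists and tests were chosen with earlier results of these data known. Named beside the members were NODAL, SMAD4, FOXH1, TGFBR2, up to 3 genes per list and direction whose libraries did not overlap between genotypes, and the 3 genes most correlated with LEFTY2 and with SKIL. Other genes of the contrast between replicate numbers were named after their values were seen. 3′ UTRs and positions came from GENCODE 29 (GRCh38), and microRNAs and promoters from RefSeq (GRCh38.p14). Python 3.11.15 with Biopython 1.88 searched sequences. Of the induced genes counted, 1 is not reported here by name.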

Additional observations from a re-analysis of the deposited data

How the results depend on the processing

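Between genotypes, 0 members were called among those tested (8 against wild type, 10 between edited genotypes) under each alternative: DESeq2 size factors, no filter, at least 1 CPM in a genotype, only the 2 genotypes compared, limma-voom, DESeq2, the replicate block and each library left out. The fit with no filter was the main fit itself, because filterByExpr removed 0 genes, so its result was fixed in advance. Counts of all genes called moved: DESeq2 called 10 (homozygous against wild type), 7 (hemizygous against wild type) and 10 (homozygous against hemizygous), the replicate block in edgeR 0, 1 and 1, and DESeq2 with the replicate block 126, 23 and 24. Leaving out 1 library gave 0 to 1, 0 to 2 and 0 to 3 genes. With the paired fit LEFTY1 in homozygous cells had an adjusted p of 0.316 in edgeR and 0.0779 in DESeq2, and the replicate block changed no tested member's call.

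Signs turned only for values near 0 or where 1 library was left out. GDF3 in homozygous against wild-type cells was at 0.002187 with limma-voom, 0.01812 with the replicate block and 0.01754 with DESeq2 and the block. SMAD3 in hemizygous against wild-type cells was at 0.003068 with DESeq2 size factors, 0.002902 with DESeq2, 0.0004228 with at least 1 CPM, 0.002294 with the block and 0.006224 with DESeq2 and the block. Leaving out 1 library, homozygous against wild type ranged from -0.07389 to 0.2203 for ACVR1B, -0.04773 to 0.3639 for ACVR2B, -0.3542 to 0.4338 for GDF3, -0.1509 to 0.08493 for SMAD3 and -0.9909 to 0.401 for SMAD7. Hemizygous against wild type ranged from -0.1754 to 0.2059 for ACVR1B, -0.2009 to 0.5971 for GDF3, -0.06054 to 0.07903 for SMAD3 and -0.5714 to 0.9507 for SMAD7. Homozygous against hemizygous ranged from -0.1395 to 0.2313 for ACVR1B, -0.2315 to 0.1801 for ACVR2B, -0.4474 to 0.1852 for GDF3, -1.776 to 1.432 for LEFTY1, -1.167 to 0.7695 for LEFTY2, -0.2984 to 0.06402 for SKIL, -0.03131 to 0.07371 for SMAD2, -0.1497 to 0.08612 for SMAD3, -1.005 to 0.1121 for SMAD7 and -0.04022 to 0.1079 for TDGF1.

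Between replicate numbers, 3322 genes were called by edgeR, 3287 with DESeq2 size factors and 3182 by DESeq2, with the same 4 members each time. Without the homozygous, hemizygous and wild-type libraries the counts were 6252, 2 and 0 genes, 6, 0 and 0 members, and 10, 0 and 0 induced targets, the last count having been chosen after seeing the data. Those fits had 4 libraries. TDGF1 was at 0.03872 without homozygous and 0.03179 without hemizygous libraries, and ACVR2B at -0.04868 without homozygous libraries. Counts of 31 and 35 limit LEFTY1, and with 2 libraries a genotype the spread between libraries limits every comparison.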
